A study of Mus musculus with 6 samples.

Results

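The DLX homeobox family of the mouse, Dlx1 to Dlx6, was examined in the incisor mesenchyme. Members were taken as the rows of the deposited expression table that carry these symbols, and all 6 were found among the 23718 genes listed. The study compared mesenchymal stem cells (MSCs) with the transit amplifying cells (TACs), the dividing progeny that arise from them, in an incisor that keeps growing. Each group had 3 samples from mice 1 month old, labeled C57BL/6, while the methods speak of a mixed background for mice in general. MSC regions came from Gli1-CreER;tdT mice and TAC regions from Axin2-CreER;tdT mice, with a tdTomato reporter at Rosa26 by the methods. In both, tamoxifen given shortly before collection turned on the red tdTomato reporter in cells that used the driver gene, and labeled regions were cut from sections by laser capture microdissection. The groups therefore differ in driver line as well as in region, and these cannot be told apart. The methods give 3 mice a group for the capture but do not tie each sample to 1 mouse, and p-values measure the spread between these samples.

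DLX proteins are transcription factors related to Distal-less of the fruit fly. They bind DNA through a homeodomain, mostly at sites with a TAAT core. In mammals the genes lie in pairs, and the genes of a pair share regulatory sequences between them. In the embryonic jaw, Dlx1 and Dlx2 are expressed broadly along the first pharyngeal arch, and Dlx5 and Dlx6 nearer its lower, mandibular end. This nested pattern helps set upper from lower jaw identity. In the tooth, Dlx1 and Dlx2 are known for their joint need in upper molars, DLX3 for a human disorder of enamel and dentin, and Dlx5 for osteoblast differentiation.

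The 6 genes formed 3 pairs, each transcribed toward its own middle. Coordinates are 1-based on mm10. Dlx1 (chromosome 2, 71528113 to 71533981, plus strand) and Dlx2 (71543408 to 71546754, minus strand) were 9.43 kb apart. Dlx3 (chromosome 11, 95120119 to 95125296, plus strand) and Dlx4 (95140447 to 95146263, minus strand) were 15.2 kb apart. Dlx6 (chromosome 6, 6863334 to 6868568, plus strand) and Dlx5 (6877805 to 6882085, minus strand) were 9.24 kb apart. All 6 had the same start and end in GENCODE release M21, with 2 exon blocks in Dlx1, 4 in Dlx4 and 3 in each other member when overlapping exons were merged.

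Promoter sequence from RefSeq (GRCm38.p6, the assembly behind mm10) was at hand for Dlx1 and Dlx2 alone among the members, and both are shown. Each runs 5′ to 3′ on the strand of its gene, from 250 bases before the RefSeq start to 50 after it. Capitals mark matches, on either strand, to the GC box GGGCGG and to CCAAT.
Dlx1, chr2:71529195-71529494, plus strand: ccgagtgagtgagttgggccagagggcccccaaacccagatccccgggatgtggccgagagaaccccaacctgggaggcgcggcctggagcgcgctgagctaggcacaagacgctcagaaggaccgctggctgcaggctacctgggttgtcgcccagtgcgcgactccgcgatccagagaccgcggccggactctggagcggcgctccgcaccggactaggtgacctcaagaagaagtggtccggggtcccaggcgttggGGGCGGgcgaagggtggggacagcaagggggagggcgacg
Dlx2, chr2:71546705-71547004, minus strand: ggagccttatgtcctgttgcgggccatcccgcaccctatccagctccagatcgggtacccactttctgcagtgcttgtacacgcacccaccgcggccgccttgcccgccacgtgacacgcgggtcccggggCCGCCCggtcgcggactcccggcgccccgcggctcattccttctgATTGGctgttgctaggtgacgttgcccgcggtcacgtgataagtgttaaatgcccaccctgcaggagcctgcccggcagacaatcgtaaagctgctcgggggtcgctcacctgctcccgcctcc
Both windows were rich in CG dinucleotides, with 27 in Dlx1 and 29 in Dlx2 against a median of 7 over 32851 promoter windows of this length. Each held 1 GC box, which 35.7% of those windows had. Dlx2 alone held a CCAAT, found in 37.4%. Neither held TAATTA, the core of many homeodomain sites, or TATAAA, letters found in 5.29% and 13.6%. The RefSeq start of Dlx1 lay 1332 bases inside the start listed in the table, and that of Dlx2 was the listed one.

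Values are read numbers scaled per library, and they compare libraries for a gene but not genes with each other. The libraries held 20203159 to 25567244 estimated reads in replicates 1 and 2 of both groups, 59793645 in MSC replicate 3 and 108156380 in TAC replicate 3. Replicate 3 stood apart in both groups, with mitochondrial ribosomal RNA at 0.112% to 0.236% of reads against 8.28% to 9.07% in replicates 1 and 2. No read was found for 43.1% of listed genes in MSC replicate 3 and 28.3% in TAC replicate 3, against 6.89% to 8.36% in the others, so that a gene without a read in MSC replicate 3 was common. The change from replicates 1 and 2 and that from replicate 3 accompany the results on members for this reason. Markers of dental mesenchyme were present in all libraries, with a sum of 2555 in MSC replicate 3 and of 8574 to 11880 elsewhere. Col1a1 made up most of each sum, at 1554 in MSC replicate 3 and 8030 to 11167 elsewhere. Of the others, Vim (621) and Pax9 (173) were highest in MSC replicate 3, Msx1 (52.8) was lowest there and Pdgfra (154) lay between. Summed odontoblast markers were also low in MSC replicate 3, at 484 against 3224 or more elsewhere. Summed ameloblast markers stood at 275 there and at 2240 or more in the rest. The driver genes of the groups overlapped between them. Gli1 was 256, 245 and 422 across MSC, by replicate number, and 153, 141 and 396 across TAC, and Axin2 was 58.3, 48.0 and 12.01 across MSC and 56.8, 63.9 and 34.1 across TAC, with limma adjusted p of 0.718 and 0.758. Gli1 was higher in MSC in each same-numbered pair, and with the replicate block its limma p was 0.0320 (adjusted p 0.203), against 0.130 for Axin2 (adjusted p 0.360). At least 1569 estimated reads lay behind each value of a DLX gene.

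All 6 members were expressed well in both populations, and 5 of them had MSC and TAC values that did not overlap. Dlx3, Dlx4 and Dlx5 were higher in each TAC library than in any MSC library, and Dlx1 and Dlx6 were higher in each MSC library than in any TAC library. Groups did not overlap for 24.3% of the 15391 genes tested, 12.3% with TAC higher and 12.0% with MSC higher. In limma, 0 of the 6 members had a Benjamini-Hochberg adjusted p under 0.05, where 0.422% of all genes had. Limma voom, run as another tool, gave 0 as well, and 3 at an unadjusted p under 0.05, where 23.2% of all genes passed in voom. At an unadjusted p under 0.05, the threshold named in the methods of the study, there were 2 members, Dlx1 and Dlx5, where 11.9% of all genes passed, 5.42% with TAC higher and 6.43% with MSC higher. With the replicate number as a block there were 4, with Dlx3 and Dlx6 added, where 20.4% of all genes passed. The median log2 fold change, TAC minus MSC, was 0.14 over the 6 members and 0.026 over all genes tested.

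**Figure D1:**
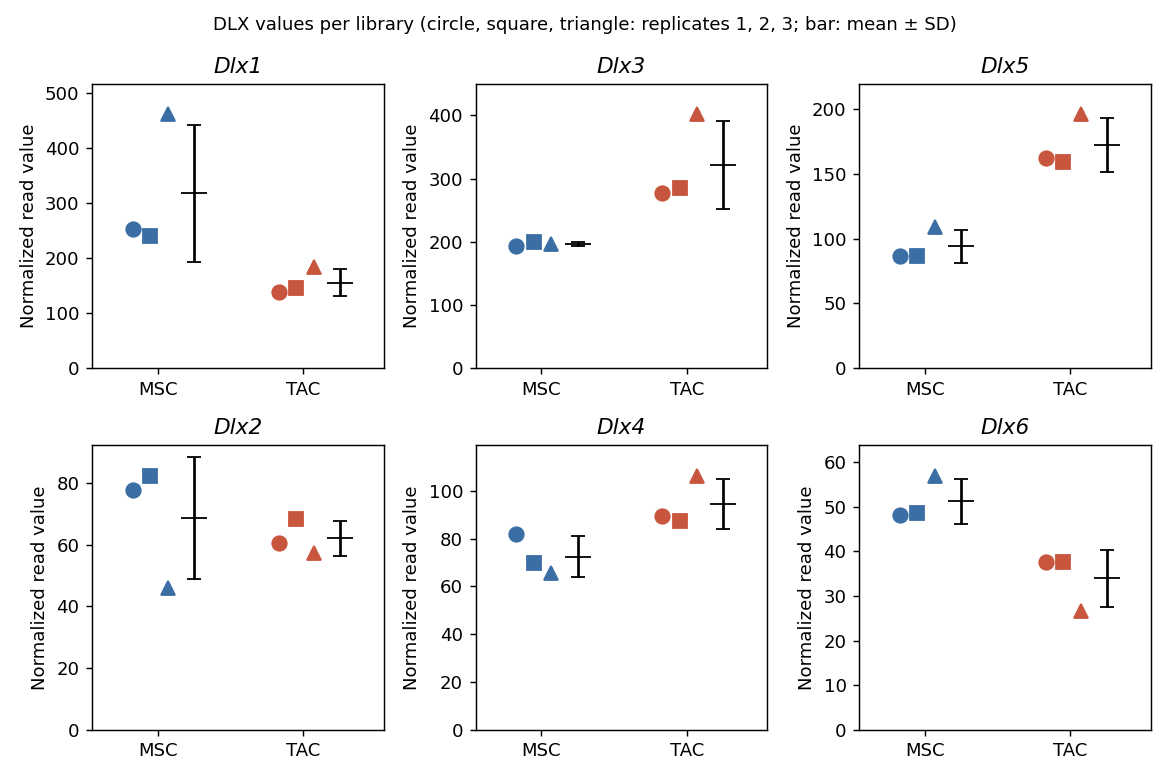
Normalized read value (vertical axis, from 0) of each DLX gene in the 3 MSC (blue) and 3 TAC (red) libraries, with circles, squares and triangles for replicates 1, 2 and 3 and bars for mean ± SD. The groups are apart for all genes but Dlx2, with Dlx1 and Dlx6 higher in MSC and Dlx3, Dlx4 and Dlx5 higher in TAC.

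Dlx1 was the member with the largest difference toward MSC. It was 252, 239.7 and 461 across MSC, by replicate number, and 138, 146 and 183 across TAC. The lowest MSC value thus lay above the highest TAC value, and replicate 3 was the highest of its group in both. The means, 318 ± 124 for MSC and 156 ± 24.2 for TAC (SD, n = 3 each), stood in a ratio of 2.04. The log2 fold change, TAC minus MSC, was -0.97 (SE 0.36, limma p 0.0292, adjusted p 0.347). Replicates 1 and 2 gave -0.79 and replicate 3 gave -1.33. Without TAC replicate 1 or TAC replicate 2 the limma p was 0.103 and 0.0913.

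Dlx2, the neighbor of Dlx1, did not separate the groups. It was 77.8, 82.5 and 45.9 across MSC and 60.6, 68.5 and 57.4 across TAC. MSC replicate 3 was the lowest of all 6 libraries while MSC replicates 1 and 2 were the highest. Its estimated change was -0.10 on the log2 scale (SE 0.31, limma adjusted p 0.944), or -0.31 from replicates 1 and 2 and 0.31 from replicate 3. Leaving out MSC replicate 1 reversed the sign, to 0.0086, as did leaving out MSC replicate 2, to 0.051. The sources do not give the use of strand in counting. The antisense gene Dlx1as overlaps 335 bases of Dlx1 exons, which is 6.21% of them, and has no exon in common with Dlx2, so reads from that stretch of Dlx1 cannot be assigned to either strand.

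Dlx1as itself went the other way from Dlx1. It was 12.1, 8.92 and 3.67 across MSC and 24.97, 25.1 and 10.97 across TAC. The groups overlapped by 1 library, since TAC replicate 3 lay below MSC replicate 1, but each TAC value was above the MSC value of the same number. The log2 fold change was 1.25 (SE 0.54, limma p 0.0537, adjusted p 0.432), and with the replicate block the p was 0.00743. Dlx1as had far fewer estimated reads than Dlx1 in each library, which compares read numbers and not levels for the length of a gene.

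Dlx3, a regulator of matrix genes in odontoblasts and ameloblasts, was higher in TAC. It was 193, 199 and 196 across MSC, which differed little, and 278, 285 and 402 across TAC. The means, 196 ± 3.17 for MSC and 322 ± 69.6 for TAC (SD, n = 3 each), stood in a ratio of 1.64. The log2 fold change was 0.69 (SE 0.30, limma p 0.0539, adjusted p 0.432), or 0.52 from replicates 1 and 2 and 1.03 from replicate 3. With the replicate block the p was 0.00688.

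Dlx4 had the same direction as Dlx3 and a smaller difference. It was 82.01, 69.6 and 65.6 across MSC and 89.6, 87.4 and 106 across TAC. The groups were apart by less than the range within MSC, and the log2 fold change of 0.38 (SE 0.25, limma p 0.171, adjusted p 0.614) did not pass. Replicates 1 and 2 gave 0.22 and replicate 3 gave 0.69. The antisense gene Dlx4os, which overlaps 79 bases of Dlx4 exons, was 56.1, 60.8 and 36.7 across MSC and 44.7, 45.2 and 81.02 across TAC. Its groups overlapped, and the difference was 0.13 on the log2 scale (SE 0.35, limma adjusted p 0.939).

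Dlx5, which acts in osteoblast and odontoblast differentiation, was the member with the largest difference toward TAC. It was 86.4, 86.6 and 109 across MSC and 162, 159 and 196 across TAC. The highest MSC value lay well below the lowest TAC value. The means, 94.04 ± 13.01 for MSC and 172 ± 20.6 for TAC (SD, n = 3 each), stood in a ratio of 1.83. The log2 fold change was 0.87 (SE 0.26, limma p 0.0122, adjusted p 0.254). Replicates 1 and 2 gave 0.88 and replicate 3 gave 0.84, the closest agreement of the 6 members. Without MSC replicate 1 or MSC replicate 2 the limma p was 0.0585 and 0.0592, and with the replicate block the adjusted p was 0.0526.

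Dlx6, the partner of Dlx5 in the pair, was higher in MSC. It was 48.1, 48.6 and 57.01 across MSC and 37.6, 37.6 and 26.6 across TAC. TAC replicate 3, the library with the most Dlx5, had the least Dlx6. The means, 51.2 ± 4.999 for MSC and 33.9 ± 6.38 for TAC (SD, n = 3 each), stood in a ratio of 1.51. The log2 fold change was -0.59 (SE 0.27, limma p 0.0641, adjusted p 0.455), or -0.35 from replicates 1 and 2 and -1.07 from replicate 3. With the replicate block the p was 0.0474.

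Dlx6os1, a long noncoding transcript that starts between Dlx5 and Dlx6 and runs through Dlx6, shares no exon base with Dlx6 in GENCODE. It was 89.2, 85.3 and 159.7 across MSC and 179, 174 and 114 across TAC. It was higher in TAC in replicates 1 and 2, by a log2 difference of 1.01, and lower in replicate 3, by -0.48, so that the change over all samples was 0.51 (SE 0.36, limma adjusted p 0.639). Dlx6os2, which shares 104 bases with Dlx6 exons, differed by 0.18 between the groups of replicates 1 and 2 and by -2.35 between those of replicate 3, with an adjusted p of 0.814 over all samples. Unlike these noncoding transcripts, Dlx5 and Dlx6 each kept 1 direction in both library sets.

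**Figure D2:**
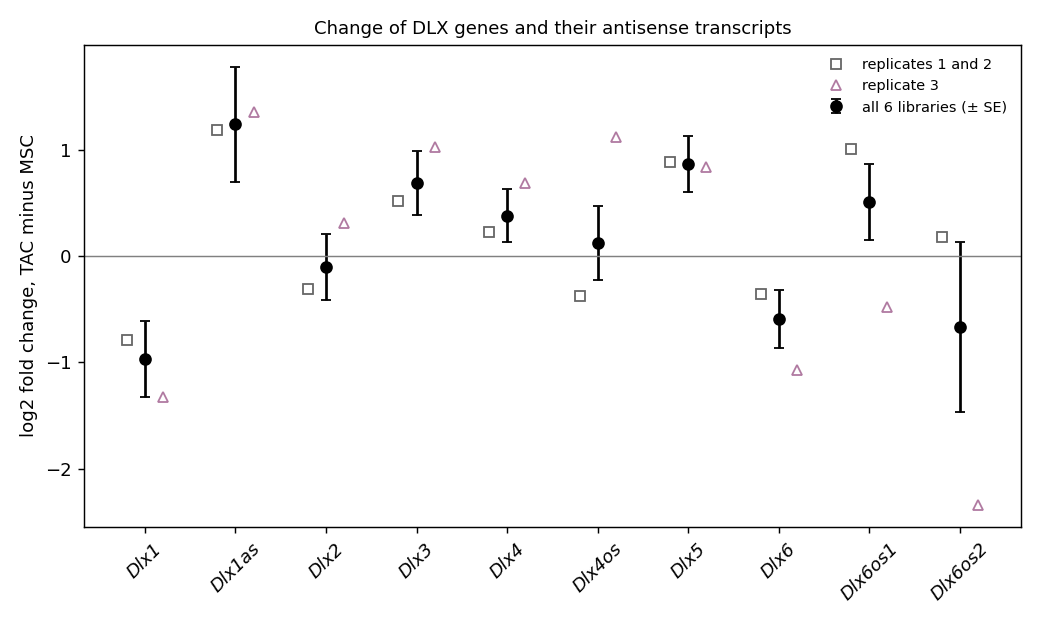
Log2 fold change, TAC minus MSC (vertical axis), of the 6 DLX genes and 4 antisense or overlapping noncoding transcripts, with filled circles for the limma estimate over 6 libraries ± SE, squares for replicates 1 and 2 and triangles for replicate 3. All members but Dlx2 lie on 1 side of 0 in both library sets, and Dlx4os, Dlx6os1 and Dlx6os2 do not.

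The direction was the same in both library sets for 5 of 6 members, while 38.8% of all genes tested had opposite directions. The size was not the same. A test of the difference between the library sets passed at an adjusted p under 0.05 for 5 of 6 members, all but Dlx5, where 57.2% of all genes passed. The error of that test is the spread between replicates 1 and 2 alone. In Dlx1, Dlx3, Dlx4 and Dlx6 the difference between MSC and TAC was larger in replicate 3.

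The ratio of the genes of a pair within 1 library does not depend on the scaling between libraries. These ratios were examined after the values had been seen, over 3 pairs. The ratio of Dlx5 to Dlx6 was 1.80, 1.78 and 1.91 across MSC, by replicate number, and 4.30, 4.23 and 7.38 across TAC. TAC libraries thus held more Dlx5 relative to Dlx6 than any MSC library. The log2 ratio was 0.86 ± 0.057 for MSC and 2.32 ± 0.45 for TAC (SD, n = 3 each), a difference of 1.46. The two-sided exact permutation p was 0.1, the smallest that 3 against 3 samples allow, and 0.15 adjusted over the 3 pairs. This p was fixed by the values above, where Dlx5 was higher in each TAC library and Dlx6 in each MSC library. Replicates 1 and 2 gave 1.24 and replicate 3 gave 1.91.

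The ratio of Dlx3 to Dlx4 was 2.35, 2.86 and 2.99 across MSC and 3.10, 3.27 and 3.77 across TAC. These groups did not overlap either, but the log2 difference was only 0.31 (two-sided exact permutation p 0.1, adjusted 0.15). The ratio of Dlx1 to Dlx2 was 3.24, 2.90 and 10.03 across MSC and 2.27, 2.13 and 3.19 across TAC. MSC replicate 3 lay far above the rest, and MSC replicate 2 lay below TAC replicate 3. In each same-numbered pair the ratio was higher in MSC, but the permutation did not use the pairing. The log2 difference was -0.87 (two-sided exact permutation p 0.2, adjusted 0.2), and -0.30 without MSC replicate 3.

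**Figure D3:**
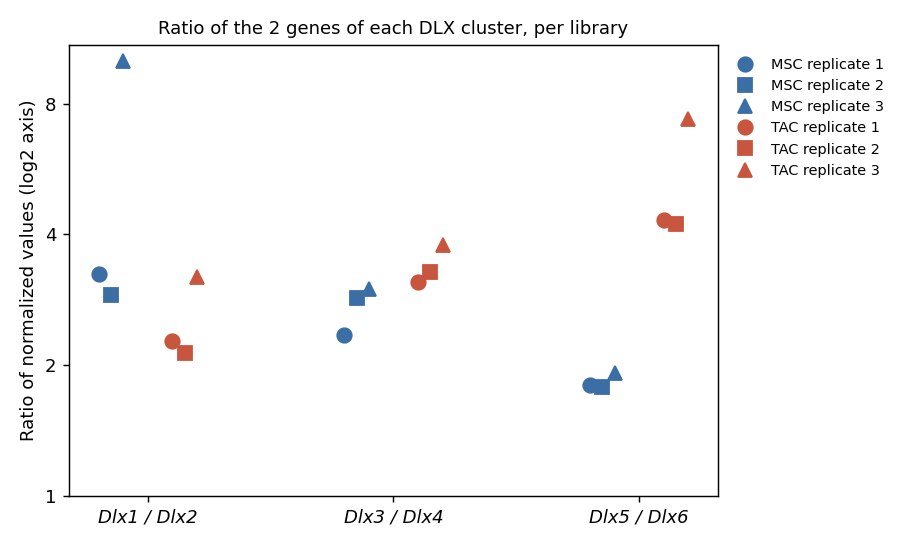
Ratio of the normalized values of the genes of each DLX pair (vertical axis, log2 scale) in every library, with MSC in blue, TAC in red and circles, squares and triangles for replicates 1, 2 and 3. The Dlx5 to Dlx6 ratio runs from 1.78 to 1.91 in MSC and from 4.23 to 7.38 in TAC.

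To compare members with each other, values were divided by the length of the merged GENCODE exons in kb. The merged length was 5396 bases for Dlx1 and 2263 to 3269 for the other members. The order of members and the shares below depend on these lengths. On this per-kb scale, Dlx3 had the highest mean in both populations, at 75.1 ± 1.22 for MSC and 123 ± 26.7 for TAC (SD, n = 3 each). In MSC replicate 3, Dlx1 stood above Dlx3, at 85.4 against 75.2. In MSC the order of mean levels per kb went on with Dlx1 at 58.8 ± 23.05, Dlx5 at 41.6 ± 5.75, Dlx2 at 24.1 ± 6.96, Dlx4 at 22.2 ± 2.62 and Dlx6 at 21.6 ± 2.10 (SD, n = 3 each). Of neighbors in that order, the ranges of Dlx5 and Dlx2 alone were apart. In TAC the order was Dlx3, then Dlx5 at 76.2 ± 9.09, Dlx4 at 28.9 ± 3.20, Dlx1 at 28.8 ± 4.48, Dlx2 at 21.8 ± 1.99 and Dlx6 at 14.3 ± 2.69 (SD, n = 3 each). There all neighbors were apart in range but Dlx4 and Dlx1. So Dlx1 stood above Dlx5 in each MSC library and below it in each TAC library.

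The summed level per kb of the 6 members was 243 ± 22.2 for MSC and 293 ± 39.3 for TAC (SD, n = 3 each), and the lowest TAC library, at 268.0, lay just under the highest MSC library, at 268.9. Its makeup was as follows. Dlx1 made up 20.2%, 19.3% and 31.8% of it across MSC and 9.52%, 9.89% and 10.02% across TAC. Dlx5 made up 16.5%, 16.7% and 17.9% across MSC and 26.7%, 25.7% and 25.6% across TAC. For Dlx3 the mean share was 31.04% ± 2.76 in MSC and 41.8% ± 3.26 in TAC (SD, n = 3 each). The share of Dlx4 was 9.19% ± 1.69 in MSC and 9.88% ± 0.316 in TAC (SD, n = 3 each). Averaged over all 6 libraries, each member had a level per kb above that of at least 93.88% of 14942 tested genes with a length.

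**Figure D4:**
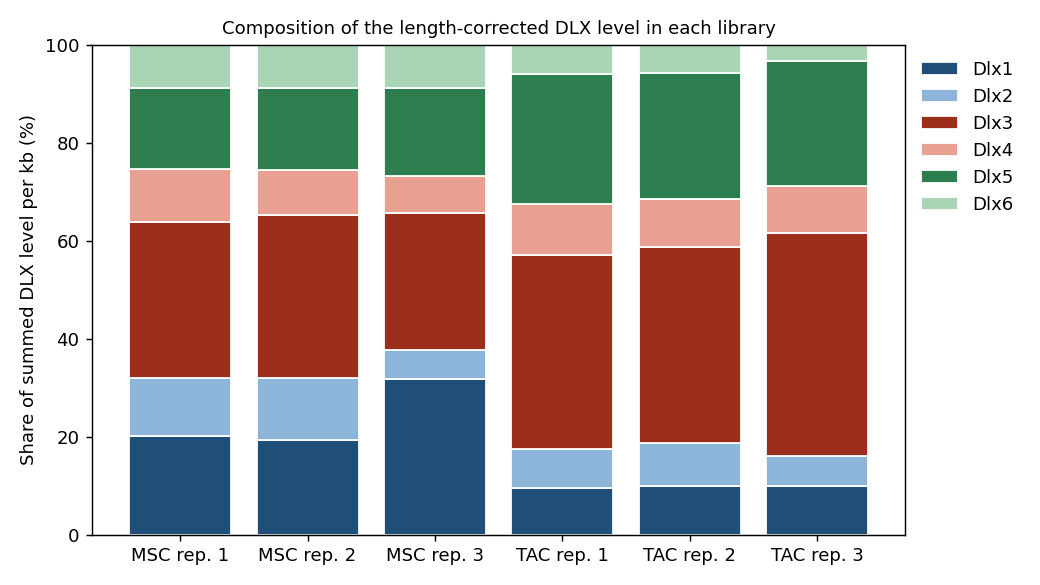
Share of each DLX gene in the summed DLX level per kb (vertical axis, 0 to 100%) for the 3 MSC and 3 TAC libraries. The Dlx1 band takes 19.3% to 31.8% in MSC and 9.52% to 10.02% in TAC, and the Dlx5 band takes 16.5% to 17.9% and 25.6% to 26.7%.

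Captured regions can hold more than 1 cell type, and in such bulk samples fewer cells of a type and less RNA per cell cannot be told apart. Several marker lists moved with the groups. Of 6 dental epithelium markers, 5 had groups that did not overlap, all higher in TAC, beside 12.3% of all genes, and 2 had an unadjusted p under 0.05, beside 11.9%. Their summed value was 25.6 to 31.1 in MSC and 46.6 to 97.0 in TAC, and Krt17, Cdh1 and Epcam had no read in MSC replicate 3. DLX genes are known in dental epithelium too, and osteoblast markers summed to 267, 268 and 401 across MSC and 289, 302 and 1322 across TAC, where replicate 3, the library with the most Dlx3, Dlx4 and Dlx5, stood highest. Bglap made up most of that sum in TAC replicate 3, and 0 of the 3 osteoblast markers had groups that did not overlap, beside 24.3% of all genes. The part of these cells in the higher Dlx3, Dlx4 and Dlx5 of TAC was not tested. Of 4 smooth muscle and pericyte markers, all 4 passed the adjusted threshold with higher values in MSC, beside 0.422% of all genes. Their sum was 579 to 1315 in MSC and 44.9 to 51.8 in TAC. Summed Schwann cell markers were 19.1 to 43.2 in MSC and 5.87 to 19.2 in TAC, and leukocyte markers 49.2 to 80.6 and 28.0 to 48.9. The part of these cells in the higher Dlx1 and Dlx6 of MSC was not tested. The summed proliferation markers were 84.2 to 189 in MSC and 242 to 905 in TAC.

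Signals and factors that act upstream of DLX genes in jaw and tooth were examined next. Of 15 genes on this list 13 were tested, since Tfap2b was not listed and Fgf9 was below the required mean. None passed the adjusted threshold in limma, and 4 had an unadjusted p under 0.05, or 7 with the replicate block, beside 11.9% and 20.4% of all genes. The median log2 fold change was -0.18 over all samples, 0.00088 in replicates 1 and 2 and 0.31 in replicate 3. Leaving out MSC replicate 1 gave a count of 1, and leaving out MSC replicate 2 or replicate 1 or 2 of TAC gave 2. With MSC replicate 3 left out it was 7. Edn1, the endothelin ligand that turns on Dlx5 and Dlx6 in the embryonic lower jaw, was 7.33, 8.35 and 31.8 across MSC and 0.504, 0.959 and 0.804 across TAC. Each MSC value was far above each TAC value, with a log2 fold change of -2.97 (SE 0.66, limma p 0.00252, adjusted p 0.142). Markers of endothelium, which is known to make endothelin, had sums of 121 to 174 in MSC against 58.1 to 79.1 in TAC. Groups did not overlap for 2 of 4, both with MSC higher, beside 12.0% of all genes. The part of endothelium in the difference of Edn1 was not tested. Ednra, its receptor, differed by -0.52 (SE 0.36, limma adjusted p 0.640), or 0.00088 from replicates 1 and 2 and -1.55 from replicate 3.

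Fgf8, a ligand of the dental epithelium that induces Dlx genes in mesenchyme, was 0.480 and 0.637 in MSC replicates 1 and 2, had no read in MSC replicate 3, and was 2.43, 2.95 and 3.47 across TAC. Its log2 fold change was 1.54 (SE 0.49, limma p 0.0160, adjusted p 0.280), and its direction was that of the epithelial markers above. Tfap2a, a factor of the neural crest, was 35.5, 29.1 and 30.1 across MSC and 44.8, 47.1 and 67.4 across TAC, which gave 0.72 on the log2 scale (SE 0.28, limma p 0.0369, adjusted p 0.379). Of the BMP ligands, Bmp2 passed the unadjusted threshold and Bmp4 and Bmp7 did not, but with the replicate block all of them did, beside 20.4% of all genes. The limma p with the block was 0.00628 for Bmp2, 0.0146 for Bmp4 and 0.0187 for Bmp7 (adjusted p 0.0978, 0.139 and 0.157). Bmp2 was at -0.98 (SE 0.39, limma p 0.0376, adjusted p 0.382), Bmp4 at 0.55 (SE 0.30, limma p 0.105, adjusted p 0.532) and Bmp7 at 0.60 (SE 0.26, limma p 0.0512, adjusted p 0.426).

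All 7 genes on the list of proteins that bind DLX proteins or modify them were tested. None passed the adjusted threshold and 1, Msx2, had an unadjusted p under 0.05, or 2 with the replicate block, which added Msx1, beside 11.9% and 20.4% of all genes. The median was 0.099. Msx2, a homeobox repressor that opposes DLX proteins on shared sites, was 43.6, 44.3 and 26.9 across MSC and 109, 107 and 104 across TAC. The groups lay far apart, at a 2.78-fold ratio of means and a log2 fold change of 1.49 (SE 0.29, limma p 0.00112, adjusted p 0.106). Msx1 was at 0.70 (SE 0.36, limma p 0.0917, adjusted p 0.509). Maged1, which binds Dlx5 and Msx2, was at -0.13 (SE 0.31, adjusted p 0.929).

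Of 10 genes that DLX proteins are known to regulate in bone and dentin, 1 had groups that did not overlap, beside 24.3% of all genes. All 10 were tested, and none passed the adjusted threshold or had an unadjusted p under 0.05 in limma, as 11.9% of all genes had, while 1 passed the latter in limma voom, with the replicate block or without MSC replicate 3. The median log2 fold change was 0.75 over all samples, 0.16 in replicates 1 and 2 and 1.34 in replicate 3. Dspp, a dentin matrix gene bound by Dlx3, was at -0.14 in replicates 1 and 2 and at 2.70 in replicate 3. Runx2, the osteoblast regulator, was at -1.52 and 0.13 and Sp7, an osteoblast factor downstream of Dlx5, at 0.34 and -0.097. Ibsp had no read in MSC replicate 3 but at least 941 estimated reads in all other libraries. Alpl, the phosphatase needed for mineral, was the gene of this list with groups that did not overlap, at 0.70 (SE 0.37, limma adjusted p 0.516), or 0.17 from replicates 1 and 2 and 1.76 from replicate 3.

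Of 11 DLX targets known from pharyngeal arches and forebrain, 8 were listed and 5 tested, with 1 past the unadjusted threshold, or 2 with the replicate block or without TAC replicate 3, and 0 past the adjusted one. The shares of all genes were 11.9% and, with the block, 20.4%. Their median was -0.32 over all samples, 0.32 in replicates 1 and 2 and 0.0094 in replicate 3. Gsc, which depends on Dlx5 and Dlx6 in the lower jaw, was 2.16 and 2.64 in MSC replicates 1 and 2, had no read in MSC replicate 3, and was 9.90, 11.7 and 14.1 across TAC. Each TAC value was thus well above each MSC value, and the log2 fold change was 2.50 (SE 0.63, limma p 0.00509, adjusted p 0.179). Hand2, which also acts downstream of endothelin in the lower jaw, was at 0.27 (SE 0.57, adjusted p 0.914), and Alx4 was at -0.94 (SE 0.65, adjusted p 0.639).

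Among other homeobox and paired box genes of the tooth, Lhx8, Pax9, Prrx1 and Shox2 had higher values in MSC. Of 19 genes 17 were tested, and Pitx1 and Six2 were below the required mean. Groups did not overlap for 7 of the 17, 5 with MSC higher and 2 with TAC higher, beside 24.3% of all genes. At an unadjusted p under 0.05 there were 5, of which 4 were higher in MSC and Msx2 was higher in TAC, or 8 with the replicate block, beside 11.9% and 20.4% of all genes, and 0 passed the adjusted threshold. The median was -0.42 over all samples, -0.46 in replicates 1 and 2 and 0.34 in replicate 3. Lhx8, a LIM homeobox gene of dental mesenchyme, was 44.2, 50.4 and 30.7 across MSC and 12.8, 10.5 and 14.9 across TAC. Pax9, a paired box gene needed for tooth formation, was 119.7, 107 and 173 across MSC and 38.8, 37.1 and 72.1 across TAC. Both had groups well apart, with log2 fold changes of -1.63 (SE 0.32, limma adjusted p 0.110) and -1.45 (SE 0.36, limma adjusted p 0.170), and Pax9 passed with the replicate block (adjusted p 0.0442). Prrx1 was at -0.87 (SE 0.25, limma adjusted p 0.231) and Shox2 at -1.60 (SE 0.56, limma adjusted p 0.322). Dlx1 and Dlx6 shared their direction with these genes, and Dlx3, Dlx4 and Dlx5 shared theirs with Msx1 and Msx2.

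**Figure D5:**
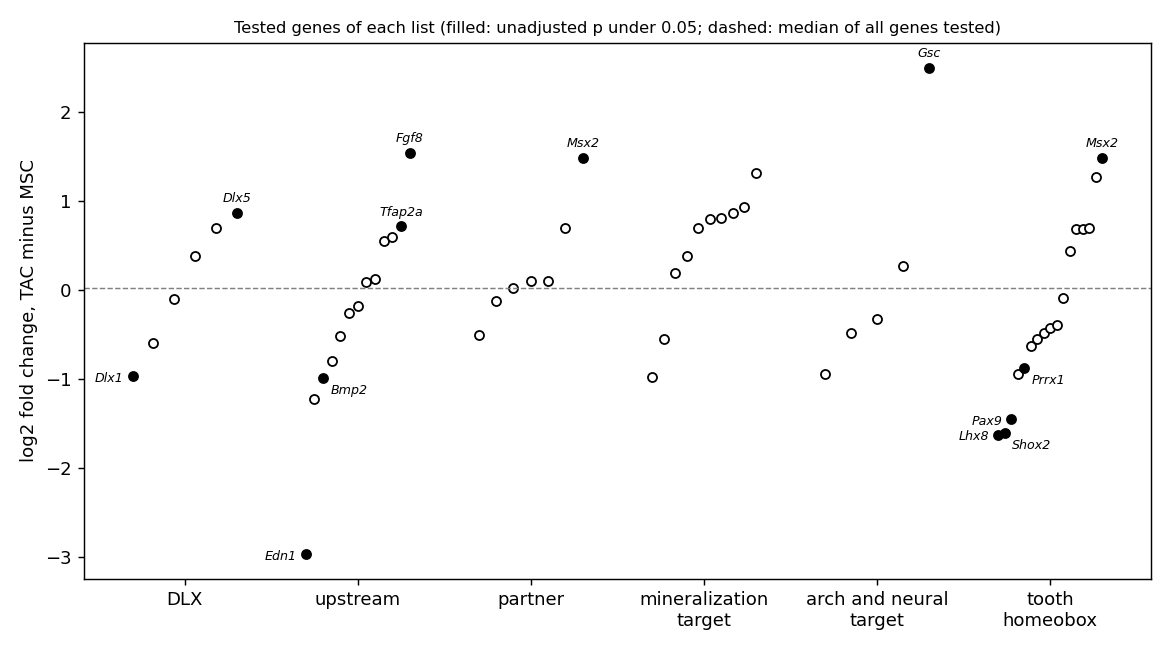
Log2 fold change, TAC minus MSC (vertical axis), of each tested gene of the DLX family and 5 lists, with filled points for an unadjusted limma p under 0.05 and a dashed line at 0.026, the median of all genes tested. Named points run from Edn1 at -2.97 to Gsc at 2.50, and Msx2 belongs to 2 lists.

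Within 200 kb of a DLX gene lay 27 other listed genes, of which 19 were tested. Groups did not overlap for 3 of the 19, Hat1 with TAC higher and Slc25a12 and Itga3 with MSC higher, beside 24.3% of all genes. None passed the adjusted threshold, and 1, Slc25a12, had an unadjusted p under 0.05, or 6 with the replicate block, beside 11.9% and 20.4% of all genes. Slc25a12, a mitochondrial carrier 160 kb from Dlx1, was 23.5, 21.6 and 25.03 across MSC and 10.4, 11.6 and 14.7 across TAC, higher in MSC as Dlx1 was. Hat1, a histone acetyltransferase 86.5 kb from Dlx1, was apart in the other direction, at 0.99 (SE 0.43, limma adjusted p 0.432). Metap1d, the closest coding neighbor of Dlx1 outside the pair at 2.92 kb, was at -0.65 (SE 0.76, limma adjusted p 0.802), and with the replicate block the p was 0.00895 (adjusted p 0.113). Leaving out replicate 1 or 2 of TAC gave a count of 0, leaving out MSC replicate 3 gave 4 and leaving out TAC replicate 3 gave 3. The median of the 19 genes was 0.037.

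Among the members themselves, the log2 values of Dlx3 and Dlx5 had a Pearson correlation of 0.941 over the 6 libraries and those of Dlx3 and Dlx6 one of -0.972, while those of Dlx2 with each other member ran from -0.443 to 0.0377. These values share the libraries, the scaling and the split between replicate 3 and the rest, so they describe likeness only. The coding genes most like each member by this measure, among 12523, had values of 0.9991 for Dlx1 (Mtmr1), 0.9987 for Dlx2 (Samd4), 0.997 for Dlx3 (Api5), 0.9967 for Dlx4 (Exosc4), 0.998 for Dlx5 (Rpl6) and 0.9988 for Dlx6 (Rel). The next in line were Slc22a21 and Sp100 for Dlx1, Lca5l and Pi4kb for Dlx2, Suz12 and Uqcrq for Dlx3, Rbm38 and Plekhg4 for Dlx4, Trim28 and Gdi2 for Dlx5, and Rimbp2 and Enpep for Dlx6, at 0.9896 to 0.9979. No gene of the DLX family was among them.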

How the data were processed

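RNA from laser-captured incisor regions was sequenced in 3 MSC and 3 TAC samples. The methods of the authors name trimming, alignment to mm10 with TopHat (version 2.0.8) and normalization as RPKM; per the labels, CASAVA 1.8.2 and Partek were also used. How reads were counted, and whether by strand, is not given in the sources used here. The deposited values are a signal: a read is worth the same in genes of any length, so they were not divided by length. The third quartile was 15.59 to 15.62 in all libraries. A read estimate was made by dividing a value by the minimum of that library and subtracting 1. Of estimates up to 10 reads, 64.6% to 72.4% per library were whole within 0.01, so counts were not taken as recovered and no negative binomial model was used; voom on the estimated reads was an alternative only.

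The planned test assumed normalized values and suits this unit. Values were taken as log2(value + 1), which understates changes of low genes, and limma 3.58.1 (R 4.3.3, variance trend, two-sided) was run on 15391 genes, those whose mean value reached 1. Adjusted p-values are Benjamini-Hochberg values over all these genes. The fits were run on simulated data that lacked the wide difference of replicate 3 seen here, so that run does not check them for it. Named genes were the members, the lists, genes within 200 kb of a member and the 3 coding genes most correlated with each member. Members and lists were chosen with earlier results of these data known. Alternatives were other pseudocounts, filters, scalings and variance models, voom, library kind as a batch term, subsets of samples and the replicate number as a block.

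Deviations from group means correlated at 0.477, 0.465 and 0.517 across genes for same-numbered MSC and TAC samples, so the numbers were taken to pair the samples, as the methods also speak of pairs. Numbers 1 and 2 were not told apart, since MSC 1 with TAC 2 gave 0.462 and MSC 2 with TAC 1 gave 0.480. Groups were called apart where ranges did not overlap, with a library without a read taken as 0.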

Additional observations from a re-analysis of the deposited data

Results flagged for a closer look

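The TAC minus MSC change differed between the library sets, replicate 3 against replicates 1 and 2, for 5 DLX genes by a limma interaction test whose error is the spread between replicates 1 and 2. The difference of the changes, replicate 3 minus replicates 1 and 2, was -0.54 on the log2 scale for Dlx1 (adjusted p 0.000824) and 0.62 for Dlx2 (adjusted p 0.00521). It was 0.51 for Dlx3 (adjusted p 0.000433), 0.47 for Dlx4 (adjusted p 0.0222) and -0.72 for Dlx6 (adjusted p 0.00229). Dlx2 alone had opposite directions in the sets. Such a difference was found for 57.2% of all genes tested.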

How the results depend on the processing

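Dlx1, Dlx3, Dlx4, Dlx5 and Dlx6 kept their direction in all 19 alternatives run. Dlx2 was reversed, at 0.0024, with replicates 1 and 2 averaged as 1 sample, and ranged from -0.36 to 0.051 as single samples were left out. Over the alternatives the adjusted p ran from 4.07e-06 to 1.00 for Dlx1, 0.0106 to 1.00 for Dlx2, 2.00e-05 to 1.00 for Dlx3, 0.0515 to 1.00 for Dlx4, 2.18e-06 to 1.00 for Dlx5 and 0.00592 to 1.00 for Dlx6. With replicate 3 against replicates 1 and 2 as a batch term, Dlx1 (-0.97), Dlx3 (0.69) and Dlx5 (0.87) passed the adjusted threshold. With replicates 1 and 2 only, Dlx1 (-0.79), Dlx2 (-0.31), Dlx3 (0.52), Dlx5 (0.88) and Dlx6 (-0.35) passed, as did 44.2% of all genes, since that fit has only the small spread between these libraries as its error.

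Counts moved as follows. Of all genes tested, 65 had an adjusted and 1824 an unadjusted p under 0.05, against 1814 and 4554 with the batch term, 6796 and 7983 with replicates 1 and 2 only, 10 and 610 with these averaged, 229 and 3136 with the replicate block, and 23 and 3575 with voom. The adjusted count was 43 with a pseudocount of 0.5 and 29 without the variance trend. Leaving out single samples gave 0 to 292 and 1028 to 3108. DLX members past the adjusted threshold were 3 with the batch term, 5 with replicates 1 and 2 only and 0 in every other alternative. Past the unadjusted threshold they were 5 with the batch term, 6 with replicates 1 and 2 only, 0 with these averaged, 4 with the replicate block and 1 to 2 as samples were left out, the 1 coming from fits that lacked replicate 1 or 2 of either group.

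For the lists, unadjusted counts with the batch term were 7 (upstream), 2 (partners), 3 (mineralization targets), 4 (arch and neural targets), 10 (tooth homeobox) and 6 (neighbors). With replicates 1 and 2 only they were 10, 4, 9, 4, 12 and 11, and with the replicate block 7, 2, 1, 2, 8 and 6. Averaging replicates 1 and 2 gave 1 for upstream genes, 2 for tooth homeobox genes and 0 for neighbors. Without the variance trend there were 2 upstream genes and 3 neighbors, and voom gave 1 mineralization target and 5 neighbors. Neighbors numbered 3 with a pseudocount of 5, a mean of at least 5 or median-ratio scaling, 2 without a filter and 4 with quantile normalization. Leaving out single samples gave 1 to 7 upstream genes, 0 to 1 mineralization targets, 1 to 2 arch and neural targets and 0 to 4 neighbors. The causes were not tested. The block changed no adjusted call of a DLX member. Differences in pair ratios kept their direction with other pseudocounts, with replicates 1 and 2 only and with single samples left out. These were the only alternatives run for the ratios, and they were chosen after seeing the data.

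Each group had 3 libraries, 1 of them apart from the rest, and at least 1569 estimated reads lay behind each value of a DLX gene.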
